A study of Mus musculus with 3 samples.

Results

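The Notch genes described here were 10 genes chosen by symbol among 21750 features of 1 single-cell library: the receptors Notch1, Notch2, Notch3 and Notch4, the ligands Dll4 and Jag1, and the target genes Hes1, Hes5, Hey1 and Heyl. All 10 were found. The library came from the hippocampi of 5 pooled Aldh1l1CreERT2;Rosa26-LSL-tdTomato mice, in which tamoxifen switches on a Cre recombinase driven by the astrocyte gene Aldh1l1 and, through it, the red reporter tdTomato. The hippocampus had received AAV-TIGRi-Hopx, a Cre-dependent virus that lowers the homeodomain gene Hopx and carries EGFP, and tissue was taken 3 weeks after tamoxifen. The age of the mice is not given in the labels. All cells share this genotype and treatment, no library without the vector was part of the single-cell data, and the anti-Flag and IgG chromatin samples of primary astrocytes were not analysed here. The study asks how astrocyte-lineage cells change state when Hopx is lowered, and the comparisons below ask in which of its cell types the Notch genes were found.

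Notch receptors are proteins of the cell surface that are cut when a ligand on a neighbouring cell binds them. The freed intracellular part enters the nucleus, joins the DNA-binding protein RBPJ and switches on target genes, among them the Hes and Hey families of transcriptional repressors. In vessels this pathway, with Dll4 and Jag1 as ligands, is known for setting arterial identity, Notch3 is known for its role in the mural cells that wrap vessels, and in the nervous system Hes1 and Hes5 are known for holding neural progenitors and glia in an undifferentiated state.

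Of 6672 barcodes, 6485 with 41760631 unique molecular identifiers (UMIs, counted RNA molecules) passed the filters, at a median of 5564 UMIs. Cell types were gated on markers that include none of the 10 genes, and 5762 barcodes were given to a class. They were 2398 microglia, 1539 endothelial cells, 629 choroid plexus cells, 484 ependymal cells, 349 border macrophages, 141 astrocytes, 93 oligodendrocytes, 45 B cells, 31 neurons, 23 T or NK cells, 17 fibroblasts and 10 mural cells, with 3 barcodes in a pair of smaller classes. In each class listed but the B cells, every marker matched in the files was at least 2-fold above the other classes, and in B cells 5 of 6 were. The same markers had set the gate, so this describes the classes and is no separate support for them. An EGFP UMI was read in 2 of the 141 astrocytes and in 39 of the 484 ependymal cells. With 1 library per group there is no replicate and no test: a level is the summed UMIs of a class per 1000000 of its UMIs (CPM), and the ranges in parentheses are exact 95% intervals for counting error alone, since cells cannot stand in for replicates. A gene is called higher or lower in a comparison where the ratio of CPM was at least 2 or at most 0.5 and both groups together held at least 50 UMIs.

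The Notch genes differed in the cell types that held them, and some cell types held several. Dll4 and, less strictly, Notch4 were endothelial, and Notch3 led in mural cells, where 7 of the 20 Heyl UMIs also lay. Hes5 was an astrocyte gene in this library, and Hey1 was shared by arterial endothelial and ependymal cells. Notch2 stood above Notch1 in myeloid cells, fibroblasts and choroid plexus cells and was low in endothelium, and astrocytes held both receptors. Endothelial cells held 98.1% of the Dll4 UMIs of gated cells, and astrocytes held 89.7% of those of Hes5.

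**Figure D1:**
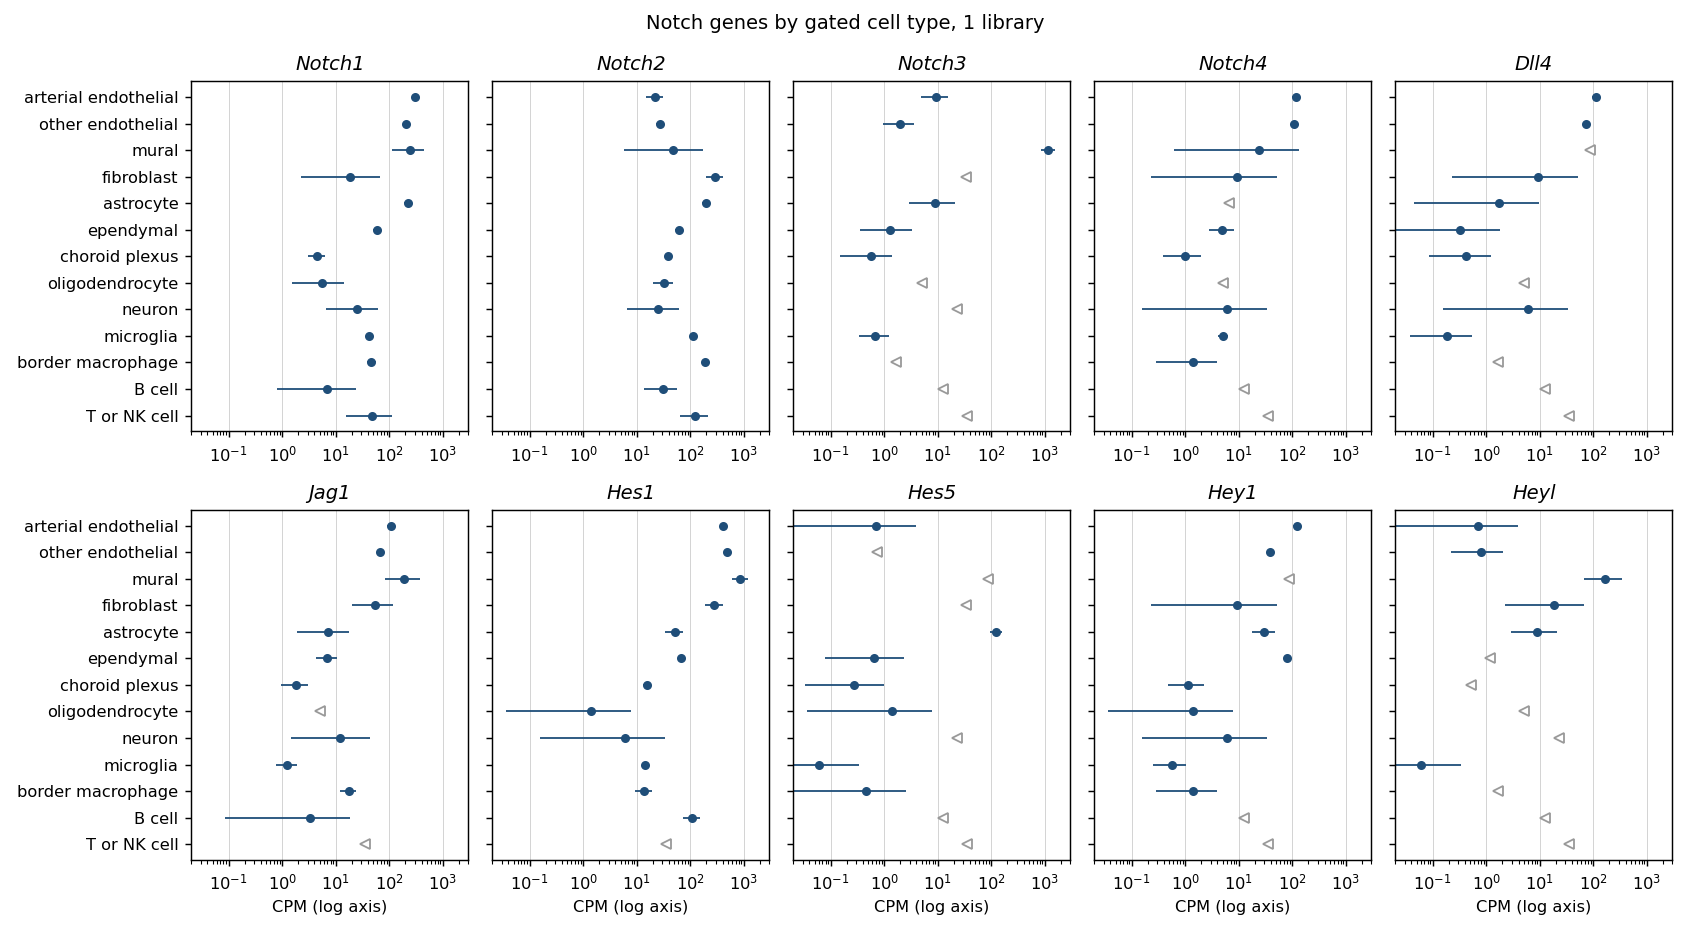
Level of each of the 10 genes in 13 cell types of the library, in CPM on a log axis; points are summed UMIs, lines exact 95% Poisson intervals, and open triangles mark the upper limit where a cell type held 0 UMIs. Notch3 stands at 1146 CPM in mural cells, Hes5 at 123 CPM in astrocytes, and Dll4 at 111 and 71.5 CPM in arterial and other endothelial cells.

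Notch1, a receptor known for its role in arterial endothelium, had its highest level in arterial endothelial cells, the 304 endothelial cells with at least 2 UMIs of Gkn3, Bmx, Sema3g and Fbln2 together. It stood at 296 CPM (269 to 326) there, at 239 CPM (114 to 439) in mural cells, at 222 CPM (185 to 264) in astrocytes and at 208 CPM (195 to 221) in the other 1235 endothelial cells. In this order no neighbour differed beyond counting error, but the mural level rests on 10 UMIs. The arterial interval lies above those of astrocytes and of the other endothelial cells. From other endothelial to ependymal cells, at 58.2 CPM (49.95 to 67.3), the step was 3.57-fold (3.05 to 4.21). Border macrophages had 46.5 CPM and microglia 41.0 CPM, levels that also did not differ beyond counting error. The lowest Notch1 level was that of choroid plexus cells, 4.45 CPM (3.05 to 6.29), from 32 UMIs in 25 of 629 cells. A Notch1 UMI was seen in 67.4% of arterial cells at a median of 3922 UMIs, against 3.97% of choroid plexus cells at 10918 UMIs, and with every cell thinned to 2000 UMIs in 45.4% of arterial cells against none of 617 choroid plexus cells.

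Notch2, a receptor known for roles in myeloid and smooth muscle cells, differed from Notch1 in endothelial, myeloid and choroid plexus cells, among others. Fibroblasts had 292 CPM (199 to 412) from 32 UMIs in 14 of 17 cells, astrocytes 197 CPM (163 to 238), border macrophages 184 CPM (167 to 203) and microglia 112 CPM (107 to 117). Border macrophages stood 1.64-fold above microglia (1.47 to 1.83), and astrocytes did not differ from border macrophages beyond counting error. Ependymal cells had 60.4 CPM and choroid plexus cells 39.1 CPM, the latter against 4.45 CPM of Notch1. Arterial and other endothelial cells were among the lowest, at 21.7 CPM (14.7 to 30.8) and 27.1 CPM (22.7 to 32.0). A Notch2 UMI was found in 49.2% of microglia, whose median depth was 6433.5 UMIs, and in 8.64% of endothelial cells, whose median depth was 3550, and after thinning in 20.0% and 4.34% of them.

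Notch3, the receptor of pericytes and vascular smooth muscle, was a mural gene. The 10 mural cells held 48 UMIs, at least 1 in every cell and 12 in the richest, or 1146 CPM (845 to 1519). The next levels were 9.10 CPM (4.85 to 15.6) in arterial cells, from 13 UMIs in 6 cells, and 8.81 CPM (2.86 to 20.6) in astrocytes, from 5 UMIs in 5 cells. In microglia 8 of the 11 Notch3 UMIs lay in a single cell. Fibroblasts, oligodendrocytes, neurons, border macrophages, B cells and T or NK cells held no Notch3 UMI, which allows up to 0.860% of the border macrophages and up to 17.6% of the fibroblasts to have one. Such limits, here and below, are the share that 3 cells would make, and they bear on cells with a UMI read, not on cells that express the gene.

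Notch4, a receptor known as endothelial, had 117 CPM (99.9 to 136) in arterial cells and 106 CPM (97.0 to 115) in the other endothelial cells, which did not differ beyond counting error (ratio 1.11, 0.923 to 1.32), although the ratio was 1.36 with cells thinned to 2000 UMIs. Endothelial cells together had 108 CPM, against 5.06 CPM (4.02 to 6.28) in microglia and 4.87 CPM (2.73 to 8.04) in ependymal cells. None of 141 astrocytes held a Notch4 UMI, which allows a share of up to 2.13%.

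Dll4, the Delta-like ligand of arterial and sprouting endothelium, was the gene most restricted to vessels. Arterial cells had 111 CPM (94.0 to 129) and other endothelial cells 71.5 CPM (64.3 to 79.3), while microglia had 0.185 CPM from 3 UMIs in 2398 cells. A Dll4 UMI was found in 35.5% of arterial cells and 21.0% of other endothelial cells, against 0.125% of microglia, and after thinning in 18.9%, 11.8% and 0.0430%. Mural cells held no Dll4 UMI, which in 10 cells allows a share of up to 30.0%.

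Jag1, the Jagged ligand by which endothelial cells signal to mural cells, was less restricted. Mural cells had 191 CPM (82.4 to 376) from 8 UMIs in 4 cells, arterial cells 108 CPM (91.5 to 126), other endothelial cells 67.3 CPM (60.3 to 74.9) and fibroblasts 54.7 CPM (20.1 to 119). The mural and arterial levels did not differ beyond counting error, nor did those of other endothelial cells and fibroblasts. Among myeloid cells Jag1 differed: border macrophages had 17.3 CPM (12.3 to 23.8), from 38 UMIs in 30 of 349 cells, and microglia 1.23 CPM (0.754 to 1.91), a ratio of 14.04 (7.97 to 25.5).

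**Figure D2:**
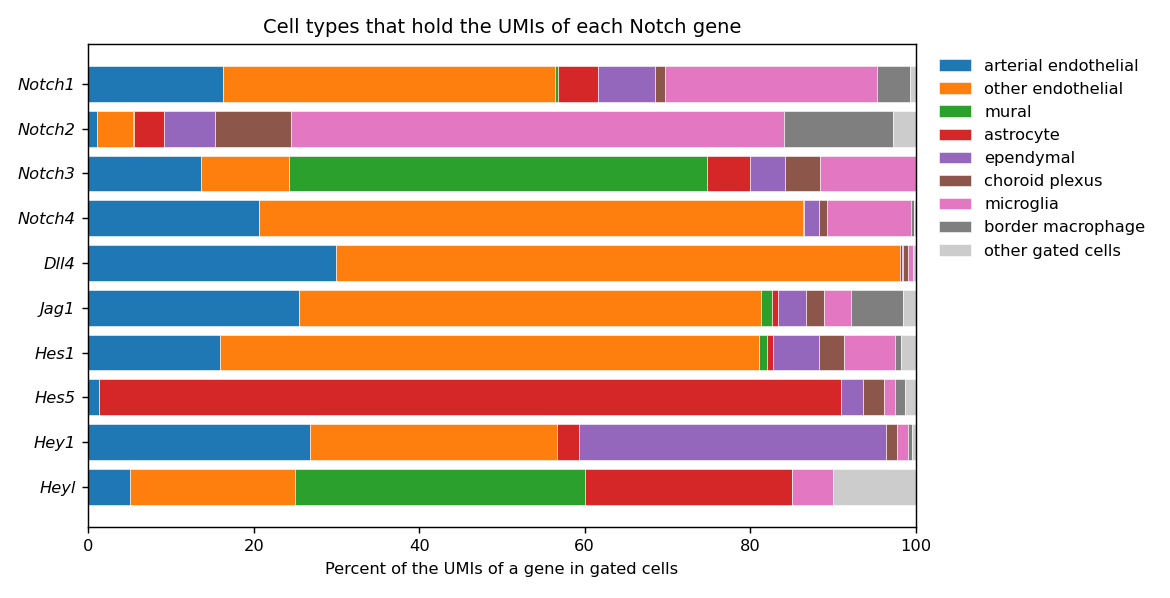
Share of the UMIs of each gene held by each cell type, in percent of the UMIs in gated cells; each bar adds to 100. The shares depend on how many cells of a type the library holds, so microglia hold most Notch2 UMIs although their level of 112 CPM is below the 292 CPM of fibroblasts.

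Hes1, a repressor induced by Notch and by other pathways, was high in all vessel-associated cells. It had 859 CPM (602 to 1190) in mural cells, from 36 UMIs of which 16 lay in a single cell, 416 CPM (383 to 451) in arterial cells, 484 CPM (465 to 503) in other endothelial cells and 283 CPM (192 to 401) in fibroblasts. B cells followed with 108 CPM (73.6 to 152), from 32 UMIs in 11 of 45 cells, then ependymal cells with 67.6 CPM, astrocytes with 51.1 CPM (34.2 to 73.4), and choroid plexus cells, microglia and border macrophages with 15.6, 14.1 and 13.7 CPM. In order of level, every step from mural cells through other endothelial, arterial, fibroblast and B cells to ependymal cells was beyond counting error, whereas ependymal cells did not differ from astrocytes, nor did neighbours among the last 3 types. Its UMIs were uneven among cells: 148 of the 1235 other endothelial cells held at least as many Hes1 UMIs as the remaining ones together, with up to 31 in a cell, and 59.9% had any, against 5.75% of microglia (47.9% against 3.14% after thinning).

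Hes5, a direct Notch target of neural progenitors and astrocytes, was found in astrocytes at 123 CPM (96.2 to 156), and every other cell type held at most 2 of its UMIs. The astrocytes held 70 of the 78 Hes5 UMIs of gated cells. Of 141 astrocytes 28 had a Hes5 UMI, or 19.9% (13.6 to 27.4), at a median of 2887 UMIs per astrocyte, against 0.0417% of microglia at 6433.5, and after thinning 15.8% against 0.0430%. The UMIs were concentrated: the richest cells had 10, 6 and 5, and the 7 richest held at least as many as all other astrocytes together.

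Of the 10 genes, 7 had an entry in the RefSeq promoter table. The targets Hes1, Hey1 and Heyl had none, so their promoters were not searched and Hes5 was the only target gene among the 7. Of the 7, only the Hes5 window, 250 bases before to 50 after the start, held GTGGGAA or, on the other strand, TTCCCAC. These letters are a common form of the RBPJ binding motif. The 250 bases before its start are shown because they carry both copies, here in capitals, at 226 and 83 bases before the start. They lie on the plus strand at chr4:154960673-154960922 of GRCm38.p6, an older build than the GRCm39 of the counts, with the gene starting at the 3′ end of the run.
Hes5: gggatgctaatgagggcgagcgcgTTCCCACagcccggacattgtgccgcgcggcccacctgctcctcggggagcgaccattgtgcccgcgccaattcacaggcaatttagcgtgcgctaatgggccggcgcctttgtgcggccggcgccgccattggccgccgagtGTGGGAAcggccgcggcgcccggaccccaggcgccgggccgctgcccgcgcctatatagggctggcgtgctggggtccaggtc
Among 32851 promoter windows of this length, 6.38% held the motif at least once and 0.256% at least 2 times. A match is a description of the letters, and no match says nothing of whether RBPJ binds.

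Hey1, a target of Notch in arterial endothelium, had 122 CPM (104 to 141) in arterial cells, 78.3 CPM (68.7 to 88.8) in ependymal cells, 38.6 CPM (33.4 to 44.5) in other endothelial cells and 30.0 CPM (17.5 to 48.0) in astrocytes. The first 3 differed from each other beyond counting error, and the last 2 did not. Microglia had 0.555 CPM from 9 UMIs, and the 10 mural cells held none. A Hey1 UMI was found in 37.8% of arterial cells, 33.1% of ependymal cells and 0.334% of microglia, and in 22.1%, 13.96% and 0.0861% after thinning.

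Heyl, a Notch target known from vascular smooth muscle, was barely seen. Gated cells held 20 of its UMIs, of which 7 were in 4 of the 10 mural cells, or 167 CPM (67.2 to 344), with 4 in a single cell, and 5 in 4 astrocytes, or 8.81 CPM (2.86 to 20.6). After thinning, 0 of 9 mural cells and 3 of 101 astrocytes had a Heyl UMI. Endothelial cells held 5 UMIs and ependymal and choroid plexus cells none, so Heyl entered none of the comparisons below.

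Endothelial cells as a whole were set against all other gated cells. Of the 9 genes with at least 50 UMIs, 6 were higher and 2 lower, where 15.6% of 13292 genes were higher and 30.7% lower. Both ligands were among the 6, Dll4 with 80.2 against 0.326 CPM (ratio 246, 133 to 516) and Jag1 with 76.3 against 3.68 CPM (20.7, 16.9 to 25.7). The receptors among them were Notch4, with 108 against 3.58 CPM (30.2, 24.7 to 37.3), and Notch1, with 227 against 36.9 CPM (6.16, 5.70 to 6.66). The targets were Hes1, with 469 against 23.1 CPM (20.3, 18.7 to 22.1), and Hey1, with 57.1 against 9.15 CPM (6.23, 5.32 to 7.31). Notch2, with 25.9 against 94.0 CPM (0.276), and Hes5, with 1 against 77 UMIs, were lower. The Dll4 ratio was 628 with the barcodes called as doublets by Scrublet left out and 382 with the stricter gate, and that of Hey1 was 10.3 with the stricter gate. The median log2 ratio was 2.64 over the 9 genes and -0.16 over all genes tested. Among 46 other Notch pathway genes 40 could be tested, and 5 were higher and 9 lower. The highest were the ligand Jag2, at 203 against 4.82 CPM (42.1, 35.5 to 50.2), the feedback inhibitor Nrarp, at 17.8 against 1.92 CPM (9.28, 6.72 to 12.9), and the ligand Dll1, at 6.05 against 1.56 CPM (3.87, 2.47 to 6.03). Rbpj, the gene of the DNA-binding partner, was lower in endothelial cells, at 89.6 against 236 CPM (0.380). Of the 10 mural markers 5 were at least 2-fold higher in endothelial cells, with 160 against 98.03 CPM summed over the list, and their part in these ratios was not tested.

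Within the endothelium, arterial cells were set against all other endothelial cells, a split that uses none of the Notch genes. Hey1 stood out: with 174 UMIs in 304 arterial cells and 194 in 1235 others, its level was 122 against 38.6 CPM, a ratio of 3.15 (2.55 to 3.89). Of the 7 genes with enough UMIs it alone, 1 gene, was called higher, and none was lower, where 2.23% of 9209 genes were higher and 2.39% lower. Over 13 other ways of splitting, filtering and weighing the cells the Hey1 ratio stayed between 2.85 and 3.81. Among the 13, the setting with a lowest UMI count of 10 cannot move a ratio. The receptor Notch1, at 296 against 208 CPM, was 1.43-fold higher (1.27 to 1.60), and the ligand Dll4, at 111 against 71.5 CPM, 1.55-fold higher (1.27 to 1.87); both intervals lie above 1 and below 2. Jag1 had 108 against 67.3 CPM, a ratio of 1.60 (1.32 to 1.94). Over the 13 alternatives the Jag1 ratio ran from 0.998, with every cell thinned to 2000 UMIs, to 1.64. Thinning is a single random draw and left a Jag1 UMI in 43 of 280 arterial cells. Why the Jag1 ratio moved was not tested. Hes1 had 416 against 484 CPM, a ratio of 0.860 (0.785 to 0.941) but 0.998 with arterial cells taken from 1 UMI of the 4 genes, and Notch2 21.7 against 27.1 CPM, a ratio of 0.801 (0.524 to 1.19). Notch3, with 13 against 10 UMIs, was below the lowest UMI count for a call. The median log2 ratio was 0.51 over the 7 genes and -0.01 over all genes.

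Some marker lists of other cell types also summed higher in arterial cells, in part through single genes. Of the 10 mural markers 5 were at least 2-fold higher, with 259 CPM summed in arterial and 132 CPM in other endothelial cells and none at 0. The neuron list, 4 of 10 markers higher, summed to 374 against 51.4 CPM, of which Stmn2 made a difference of 320 CPM, while Dcx, Gap43 and Sox11 were at 0 in arterial cells. The list for T or NK cells, 1 of 7 higher, had 215 against 68.1 CPM, with Cd3e, Cd3d, Nkg7 and Klrb1c at 0 in arterial cells. Here Ccl5 made a difference of 151 CPM, and the rest of this list was not higher in arterial cells. The astrocyte list, 2 of 10 higher, had 201 against 114 CPM with Ntsr2 and Gjb6 at 0. The border macrophage list, 4 of 9 higher, had 104 against 67.9 CPM with Cbr2 at 0 in arterial cells. Whether these markers reflect RNA of other cell types, and their part in the ratios, was not tested.

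**Figure D3:**
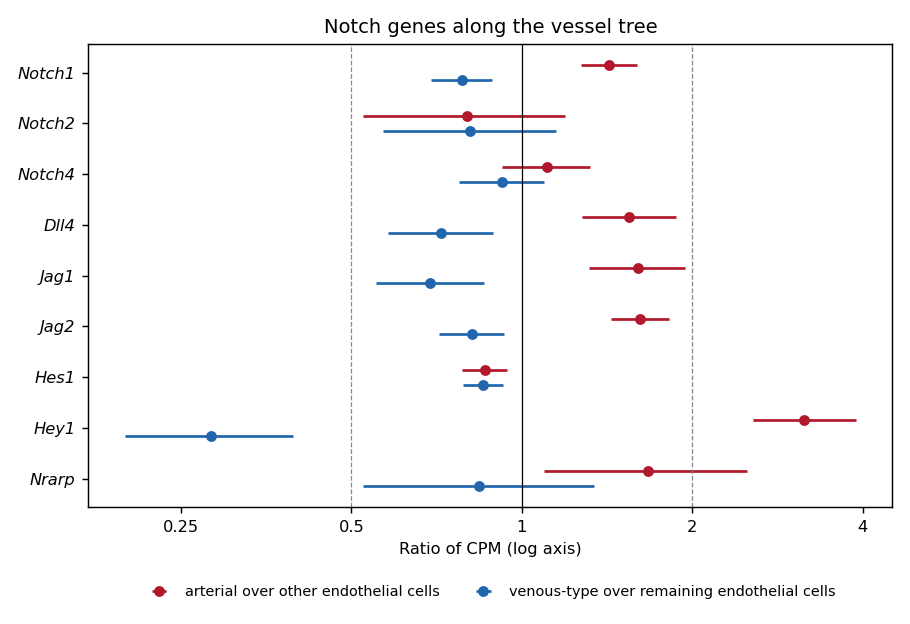
Ratio of CPM on a log axis for 7 of the 10 genes with enough UMIs in both comparisons and for the pathway genes Jag2 and Nrarp, arterial over other endothelial cells in red and venous-type over remaining endothelial cells in blue, with exact 95% intervals for counting error; dashed lines mark a ratio of 0.5 and 2. Hey1 is the gene beyond both lines, at 3.15 and 0.283.

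The same genes were followed to the venous side. Of the 1235 other endothelial cells, 498 with at least 2 UMIs of Vwf, Lrg1, Slc38a5 and Nr2f2 together are called venous-type here, and 737 remain. Hey1 had 17.6 CPM (12.96 to 23.5) in venous-type cells and 62.4 CPM (52.7 to 73.3) in the remaining ones, a ratio of 0.283 (0.199 to 0.395), so its level was ordered arterial, remaining, venous-type with no overlap of the intervals. Of 7 genes it alone, 1 gene, was called lower, and none was higher, where 0.604% of 8611 genes were lower and 1.14% higher. Jag1, with 55.5 against 80.7 CPM, had a ratio of 0.689 (0.552 to 0.858), Dll4, with 60.4 against 84.1 CPM, 0.719 (0.580 to 0.889), and Notch1, with 184 against 235 CPM, 0.783 (0.692 to 0.886). Hes1 had 448 against 525 CPM (0.853, 0.787 to 0.925). Notch4 had 102 against 110 CPM (0.921, 0.774 to 1.10). Venous-type cells had a median of 4341.5 UMIs and the remaining cells 3011, and a cell with more UMIs passes the split more easily.

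Binning the endothelial cells by their UMIs of the 4 arterial genes gave a graded picture. In cells with 0, 1, 2 to 4 and 5 or more such UMIs, Hey1 had 29.1, 90.3, 106 and 138 CPM, and its largest step was that from 0 to 1 UMI. Dll4 had 69.2, 83.9, 108 and 113 CPM, and Notch1 207, 211, 267 and 326 CPM. Both thus stood highest in the most arterial bin. With cells thinned to 2000 UMIs, the share with a Dll4 UMI was 11.4, 14.2, 17.01 and 21.1% in these bins, and the share with a Notch1 UMI 33.5, 35.2, 40.8 and 50.4%. Jag1 had 69.0, 58.5, 98.7 and 117 CPM. Its shares of cells after thinning, a single random draw, were 15.2, 12.3, 15.6 and 15.04% and had no such order. Hes1, with 469, 563, 396 and 436 CPM, showed no such order. The bins held 1051, 184, 166 and 138 cells, with median depths of 3371, 3533.5, 3744 and 4288.5 UMIs. Other genes known as arterial, chosen after their values were seen and not used in the split, were also highest in arterial cells. Efnb2, the ephrin ligand of arteries, had 93.1 CPM in arterial, 20.6 CPM in venous-type and 49.2 CPM in the remaining cells. Gja4, the gene of a gap junction protein, had 30.1, 3.00 and 2.12 CPM, and Unc5b, a guidance receptor, 48.3, 11.6 and 26.3 CPM.

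**Figure D4:**
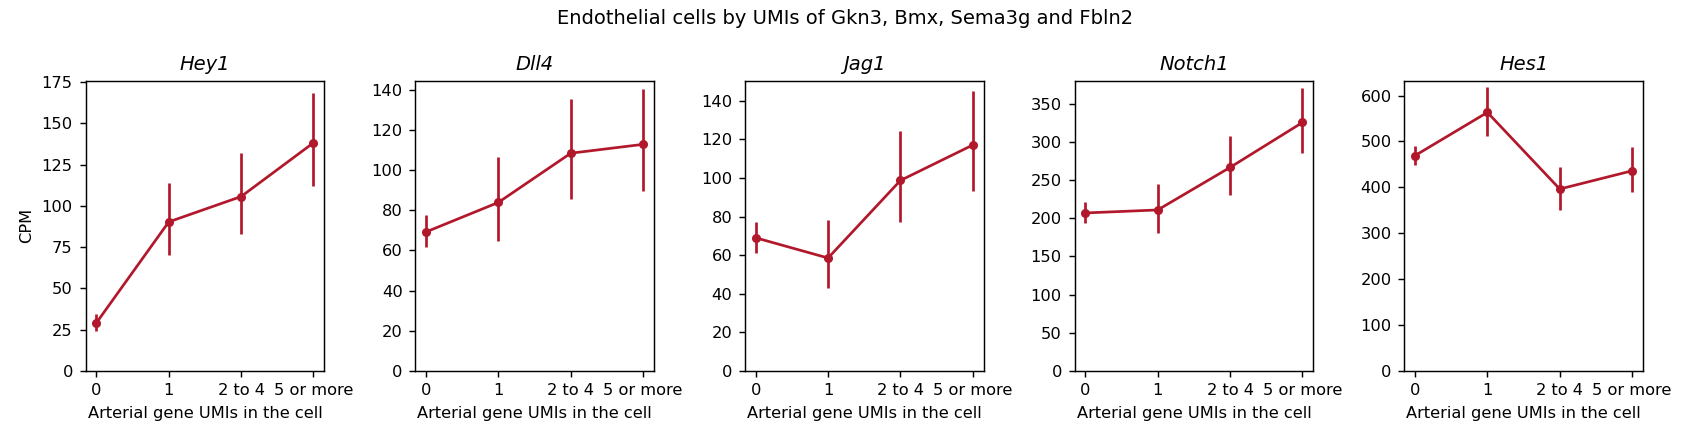
Level in CPM of 5 Notch genes in endothelial cells with 0, 1, 2 to 4 and 5 or more UMIs of Gkn3, Bmx, Sema3g and Fbln2 together; lines are exact 95% Poisson intervals for counting error. Hey1 goes with the arterial genes, at 29.1 CPM in the first bin and 138 CPM in the last, and Hes1 does not.

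Few other Notch pathway genes differed between arterial and other endothelial cells. Of 46, 33 could be tested, none was higher and 1 was lower, with a median log2 ratio of -0.01. Dtx2, of the Deltex family of ubiquitin ligases that act on Notch, was lower with 6 against 75 UMIs, or 4.20 against 14.9 CPM (0.281, 0.100 to 0.641). Jag2, at 288 against 178 CPM, and Nrarp, at 25.9 against 15.5 CPM, had ratios of 1.62 (1.43 to 1.82) and 1.67 (1.10 to 2.50), close to those of Dll4 and Notch1; both were chosen after their values were seen.

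Ligand and target were also looked at in the same cell, with every cell thinned to 2000 UMIs. Among the other endothelial cells, 19 of 125 with a Dll4 UMI had a Hey1 UMI, or 15.2%, and 52 of 932 without Dll4 did, or 5.58%. In arterial cells the shares were 28.3% of 53 cells with Dll4 and 20.7% of 227 without. For Notch1 the shares in the other endothelial cells were 44.0% with Dll4 and 32.4% without, and for Hes1 52.8% and 47.2%. For Notch4 they were 16% with Dll4 and 18.9% without, and for Jag1 16.8% and 14.5%. In arterial cells they were 47.2% and 44.9% for Notch1 and 45.3% and 44.9% for Hes1. There they were 24.5% and 24.7% for Notch4 and 11.3% and 16.3% for Jag1. No interval is given for these shares. The other endothelial cells pool venous-type and remaining cells, which differed in Dll4 and Hey1. The part of this pooling in the shares was not tested. Thinned in this way, an arterial cell showed a UMI of 1.77 of the 10 genes on average, another endothelial cell 1.38, an astrocyte 0.941, an ependymal cell 0.524, a microglial cell 0.319 and a choroid plexus cell 0.105.

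The mural class was small, so its values describe 10 cells. Of 9 genes with enough UMIs, 4 were higher than in all other gated cells and none was lower, where 19% of 13292 genes were higher and 7.32% lower. Notch3 had 1146 against 1.27 CPM, a ratio of 905 (592 to 1382), and 520 when barcodes with markers of 2 classes were given to their leading class, an alternative chosen after the data were seen. Jag1 had 191 against 16.1 CPM (11.9, 5.10 to 23.5), Hes1 859 against 99.6 CPM (8.63, 6.03 to 11.97) and Notch1 239 against 69.8 CPM (3.42, 1.64 to 6.30). The Jag1 ratio was 2.44 and the Hes1 ratio 3.83 with cells thinned to 2000 UMIs, where Notch3 fell below the lowest UMI count for a call, and with cells weighed equally they were 5.72 and 4.05. Dll4, Hes5 and Hey1 were at 0 UMIs in mural cells, so no median ratio is given. A 0 was set to 3 UMIs, which in this small class is 71.6 CPM. Over the library these genes had 13.2, 2.04 and 18.0 CPM, so none of them could have been called lower here. Of the 46 pathway genes, 40 could be tested and 7 were higher and 6 lower. The highest were Nrarp, with 13 UMIs and 310 against 4.34 CPM (71.5, 37.3 to 126), Hey2, a relative of Hey1, with 5 UMIs and 119 against 4.74 CPM (25.2, 8.07 to 59.8), and Aph1b, a subunit of the gamma-secretase that cuts Notch, with 4 UMIs and 95.5 against 16.4 CPM (5.82, 1.58 to 14.97). No endothelial marker was at least 2-fold higher in mural cells, and that list summed to 740 against 3237 CPM with Kdr at 0.

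Astrocytes combined 2 receptors with Hes5. Of 9 genes with enough UMIs, 4 were higher than in all other gated cells and 3 lower, where 23.2% of 13292 genes were higher and 19.9% lower, so the count of genes is not far from the background. Hes5 had 70 against 8 UMIs, or 123 against 0.219 CPM (564, 271 to 1358). Notch1 had 222 against 67.6 CPM (3.28, 2.72 to 3.93) and Notch2 197 against 80.4 CPM (2.46, 2.02 to 2.97). Notch3, from 5 UMIs, had 8.81 against 2.46 CPM (3.58, 1.14 to 8.67) but 1.67 with cells weighed equally. Dll4, Jag1 and Notch4 were lower, with 1, 4 and 0 UMIs in astrocytes. Dll4 had 1.76 against 14.4 CPM (0.123), Jag1 7.05 against 16.4 CPM (0.429, or 0.507 with cells weighed equally), and Notch4, with its 0 set to 3 UMIs, had a ratio of at most 0.239. Hes1 had 51.1 against 101 CPM (0.505, 0.338 to 0.727). The median log2 ratio was 0.79 over the 9 genes and 0.16 over all genes.

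Of the 40 pathway genes that could be tested, 10 were higher in astrocytes and 9 lower. The highest were Dner, a Notch ligand-like protein of the nervous system, at 215 against 5.58 CPM (38.6, 30.6 to 48.5), Dtx1, of the Deltex family, at 54.6 against 4.59 CPM (11.9, 7.84 to 17.5), and Nrarp at 45.8 against 4.05 CPM (11.3, 7.16 to 17.3). Lfng, a sugar transferase that changes how receptors answer to ligands, had 130 against 20.0 CPM (6.53, 5.07 to 8.30), and was picked after its value was seen. Of the oligodendrocyte precursor markers 2 of 6 were at least 2-fold higher, with 1941 against 49.0 CPM summed, mostly Ptprz1, and Cspg4 and Neu4 were at 0. Of the ependymal markers none was, with 122 against 827 CPM.

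The 28 astrocytes with a Hes5 UMI were set beside the 113 without, a pair of groups chosen after the data were seen. Hopx, the knockdown target, had 836 CPM in those with Hes5 and 447 CPM in those without, a ratio of 1.87 (1.46 to 2.38). Gfap, the filament gene of reactive astrocytes, had 655 against 1500 CPM, a ratio of 0.436 (0.343 to 0.549). Aqp4, the astrocyte water channel, had 1175 against 1312 CPM (0.896, 0.743 to 1.07), and Notch1 252 against 213 CPM (1.18, 0.766 to 1.78), which did not differ beyond counting error. Cells with Hes5 had a median of 3727 UMIs and those without 2798, and the part of depth was not tested. Over all 141 astrocytes Hopx had 534 CPM (476 to 598), and without a library that lacks the vector the size of the knockdown cannot be read from these counts.

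In ependymal cells, the ciliated cells that line the ventricles, Hey1 was above the other gated cells pooled, though not above arterial endothelial cells. Those had 122 CPM of Hey1, 1.56-fold the ependymal level (1.27 to 1.90). Of 9 genes with enough UMIs Hey1 alone, 1 gene, was higher than in all other gated cells, at 78.3 against 11.98 CPM (6.54, 5.55 to 7.69), and 5 were lower. Over all 13292 genes 26.4% were higher and 21.3% lower, so the count of higher genes was not above the background. The Hey1 ratio to all other gated cells was 4.31 with cells thinned to 2000 UMIs and 3.81 with cells weighed equally. Against choroid plexus cells, the neighbouring epithelium, Hey1 was 70.4-fold higher (35.1 to 165), Notch1 13.1-fold higher (8.93 to 19.7), Hes1 4.34-fold higher (3.43 to 5.51) and Notch2 1.55-fold higher (1.28 to 1.87). Lower than in all other gated cells were Dll4 with 1 UMI (ratio 0.0210, or at most 0.110 with the stricter gate and at most 0.150 after thinning, which both left out that UMI), Notch4 with 4.87 against 23.3 CPM (0.209), Hes5 with 2 UMIs (0.291), Jag1 with 6.82 against 17.1 CPM (0.398) and Notch3 with 4 UMIs (0.487, or 0.741 with the stricter gate). The median log2 ratio was -1.04 over the 9 genes and 0.17 over all genes. Of 40 pathway genes 8 were higher and 9 lower, the highest being Dtx1 at 46.8 against 1.61 CPM (29.0, 21.1 to 40.3), Hey2 at 24.4 against 3.11 CPM (7.83, 5.75 to 10.6) and Aph1b at 71.2 against 11.6 CPM (6.15, 5.19 to 7.28). Astrocyte markers were higher too, 6 of 10 by at least 2-fold, with 2185 against 605 CPM summed, and their part in the Hey1 ratio was not tested.

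The virus marker gave the only contrast by transduction that the cells allowed. The 39 ependymal cells with an EGFP UMI were set against the 445 without. Of 4 genes with enough UMIs none was at least 2-fold higher or lower, where 2.64% of 8761 genes were higher and 5.39% lower. Hey1 had 81.1 against 78.0 CPM (1.04, 0.664 to 1.57), Hes1 71.7 against 67.1 CPM (1.07, 0.661 to 1.65), Notch1 49.9 against 59.1 CPM (0.844, 0.471 to 1.41) and Notch2 40.5 against 62.8 CPM (0.646, 0.337 to 1.13). These intervals do not show that the groups are alike, and with cells thinned to 2000 UMIs Notch2 was past 2-fold lower. Cells with EGFP had a median of 6833 UMIs and those without 5585, and a cell read more deeply is more likely to show an EGFP UMI.

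Choroid plexus cells, which secrete cerebrospinal fluid, were low against the other gated cells pooled. All 9 genes with enough UMIs were lower than in all other gated cells and none was higher, where 51.5% of 13292 genes were lower and 12.4% higher. They were not the lowest class for every gene. Their Notch2, at 39.1 CPM, stood above arterial and other endothelial cells, at 21.7 and 27.1 CPM. Their Hes1, at 15.6 CPM, did not differ beyond counting error from microglia, at 14.1 CPM. The ratios ran from 0.0239 for Dll4 to 0.423 for Notch2, and Notch1 had 4.45 against 85.7 CPM (0.0520, 0.0355 to 0.0735). With cells weighed equally the Notch1 ratio was 0.0284. With cells thinned to 2000 UMIs no Dll4 or Notch1 UMI was left in choroid plexus cells, and with 0 set to 3 UMIs the ratios were at most 0.103 for Dll4 and at most 0.0240 for Notch1. The median log2 ratio was -3.45 over the 9 genes and -1.07 over all genes. The choroid plexus markers alone summed to 212106 CPM in these cells and to 299.7 CPM in the others, and the part of this in the other genes' CPM was not tested. Of 40 pathway genes 26 were lower and 2 were higher: Hes6, of the Hes family, at 73.0 against 12.5 CPM (5.84, 5.10 to 6.68), and Hey2 at 10.7 against 3.47 CPM (3.09, 2.27 to 4.18).

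The genes with the pattern most like each Notch gene were sought among 11310 genes by the Pearson correlation of log2(CPM + 1) over the 8 cell types of at least 50 cells, a description of 8 points that share a library. Dll4 was most like Sox18, Adgra2 and Emcn, at up to 0.998, and Notch4 like Atp10a, Pear1 and Tspan13, at up to 0.993. Hes1 was most like Ripor1, Shoc2 and Utrn (up to 0.994), Jag1 like Map3k6, Rbms1 and Dennd3 (0.990), and Hey1 like Lama3, Plec and Tnks1bp1 (0.989). Notch2 was most like Apoe, the lipid carrier, with Soat1 and Mboat7 (0.982), and Notch1 like Polg, Dnajb5 and Helz (0.978). Hes5 was most like Myoc, Gpc5 and Bmpr1b (0.978), and Heyl like Gjb6, Desi2 and Myoc (0.970). The Heyl value rests on 5 UMIs in astrocytes, 5 in endothelial cells and 1 in microglia. Its mural and fibroblast UMIs lie outside the 8 types. Notch3, whose mural cells are not among the 8 types, was most like Alg12, Psmf1 and Cped1 (0.938). Among the 10 genes themselves, the highest value was that of Hes5 with Heyl (0.918), which rests on the few Heyl UMIs given above. Dll4 went with Notch4 (0.903) and Hes1 with Jag1 (0.898), whereas Notch2 ran against Dll4 (-0.59).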

How the data were processed

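The authors deposited raw UMI counts for each gene in each barcode. The submitters' processing notes name Cell Ranger 8.0.1 and the build GRCm39. For the annotation version and the treatment of intronic reads, nothing is stated in the sources used here. The filter kept barcodes of at least 500 genes, which 164 lacked, and at most 15% mitochondrial UMIs, which 97 exceeded, and took out 187. The genes, the pathway list and the comparisons were chosen with earlier results of these data known.

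A marker counted for a cell if its CPM there exceeded its CPM in the library. Each cell was given to the class of which most markers counted, as a share of that class's list, if this was at least 30%, at least 3 markers and at least 1.5 times the next class. Otherwise it was mixed (377 barcodes, 5.81%) or left ungated (346). This scoring was set after the data were seen. Of 117 marker symbols 115 matched. Doublets were treated by leaving out mixed barcodes, and leaving out those called by Scrublet (261, or 4.02%) as well was an alternative. Arterial cells had at least 2 UMIs of the 4 arterial genes, and venous-type cells at least 2 UMIs of the 4 venous genes among the rest.

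UMIs were summed per class. Levels have exact Poisson, ratios exact binomial and shares exact Clopper-Pearson 95% intervals. UMIs come from PCR-amplified libraries, and the intervals and limits cover counting error only. A group at 0 was set to 3 counts over the group, and in place of an interval a share of 0 has the limit of 3 cells. Ratio intervals were tried on simulated Poisson counts, the setting they are made for. The simulation leaves out the unevenness of UMIs among cells described above. Named are the 10 genes, the pathway genes past 2-fold in arterial cells or with the 3 largest ratios in a class, and the 3 genes most like each of the 10; other genes are said to be chosen after their values were seen, or are given as examples. Python 3.11.15, numpy 2.4.6, pandas 2.3.3, scipy 1.17.1, scanpy 1.11.5 and matplotlib 3.10.9 were used. Alternatives varied the cell filter, doublets, the gate, the weighing and thinning of cells, the lowest UMI count and the arterial and venous splits.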

Additional observations from a re-analysis of the deposited data

Results flagged for a closer look

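Barcodes with markers of more than 1 class, which no comparison above uses, held 43 Notch3 UMIs, 31.2% of all Notch3 UMIs in the library. Of these, 41 lay in 12 barcodes with both endothelial and mural markers, at 730 CPM, and what these barcodes hold was not tested. The same barcodes of more than 1 class held 100 Hey1 UMIs, 13.3% of those in the library, and 67 of them lay in 172 barcodes with both astrocyte and ependymal markers, at 57.4 CPM.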

How the results depend on the processing

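No paired analysis was possible because each group has 1 library and the labels share no replicate numbers. Of 47 alternatives for the counts of members past 2-fold, 44 kept the count within 1.5 times. In arterial cells the count was 2 in place of 1, with Notch3 added, when genes with 10 UMIs were allowed, which the lower limit itself brings, and also 2 when barcodes of 2 classes were given to their leading class, an alternative chosen after the data were seen, for which the cause was not tested. In ependymal cells with and without EGFP the count was 1, Notch2, with thinned cells, and the cause was not tested. Of 294 alternatives for single ratios 258 stayed within the counting interval, as did all 30 for levels. The alternatives with a lowest UMI count of 10 leave a ratio unchanged by construction, so among the ratios they could only stay. The shares of cells with a UMI moved with thinning in 7 of 10 cases, to 18.9% for Dll4, 22.1% for Hey1, 15.4% for Jag1, 45.4% for Notch1 and 24.6% for Notch4 in arterial cells, 47.9% for Hes1 in other endothelial cells and 25.7% for Notch2 in astrocytes. Fewer UMIs per cell by construction lower such shares. Depth limits the mural class (10 cells) and Hes5, which fell under 50 UMIs over both groups with thinned cells or with the stricter cell filter.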
